A study of Mus musculus with 2 samples.

Results

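The major histocompatibility complex (MHC) genes and the genes of antigen processing were followed in cells of mouse Peyer's patches, clusters of lymphoid tissue in the wall of the small intestine, sorted by the presence or absence of an S100A4 reporter. Members were all non-control probes whose array annotation named a gene starting with H2-, the mouse MHC, or 1 of 15 named partners: Cd74, Ciita, B2m, Tap1, Tap2, Tapbp, Psmb8, Psmb9, Psmb10, Psme1, Psme2, Cd1d1, Erap1, Nlrc5 and Mr1. The choice went by name. It gave 95 of 56602 probes and 56 of 24815 named genes, and Psme2 had no probe of that name. The question was how the classical class I, non-classical class I and class II genes compared between the sorted fractions.

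Both fractions came from S100A4-GFP transgenic mice of the C57BL/6 strain, in which a green fluorescent protein marks cells that use S100A4 regulatory sequence, and the labels give no treatment of the mice. The Peyer's patches were digested with dispase II, collagenase D and DNase I and the cells were sorted by flow cytometry. The groups were S100A4-positive cells and S100A4-negative cells, with 1 RNA sample and 1 Cy3 array each. Age, the number of mice and any pooling are not given in the sources used here, and the fractions are mixtures of cell types set apart by 1 reporter.

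MHC class I molecules sit on nearly all nucleated cells and hold peptides cut in the cytosol by the proteasome, carried into the endoplasmic reticulum by the TAP transporter and fitted with the help of tapasin and beta-2-microglobulin. Class II molecules are made by antigen-presenting cells such as B cells, dendritic cells and macrophages, and their peptides come from endosomes, where H2-DM exchanges the invariant chain remnant for a peptide and H2-O restrains H2-DM. In Peyer's patches, antigen taken up across the follicle epithelium meets dendritic cells, macrophages and the B cells of the follicles. Non-classical class I molecules resemble the classical ones but vary little between individuals, and several present special ligands to natural killer cells, gamma-delta T cells or other unconventional lymphocytes. The C57BL/6 strain carries no H2-L gene and no working H2-Ea gene.

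The sort label was checked first. S100a4 had a processed signal of 119341 on the S100A4-positive array and 1057 on the S100A4-negative array, 175-fold higher in positive cells (log2 difference 7.45, scanner error 0.20). Of 59305 non-control spots on each array, 31042 (52.3%) were well above background on the S100A4-positive array and 31595 (53.3%) on the S100A4-negative array, and 0 were saturated. The positive array was dimmer as a whole, with a 75th percentile signal of 287.3, against 445.9 on the negative array. Each array was therefore centred on its 75th percentile, which adds 0.63 to every log2 difference, and equal raw signals stand for a higher level in positive cells on this scale. A single array per group allows neither a replicate check nor a p-value. Errors are those that the scanner software gives for a spot and were close to 0.20 for most member differences. The E1A spike-in controls, RNA added in a fixed amount at labelling, were 3.69-fold brighter on the positive array, and scaling on them would take 2.52 off every log2 difference given here.

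Of the 56 member genes, 45 were well above background on at least 1 array and 44 on both. A total of 7 were at least 2-fold higher in S100A4-positive cells, 5 were at least 2-fold lower and 33 lay within 2-fold. Among all 15248 genes above background the higher share was 21.4% and the lower share 17.0%, against 15.6% and 11.1% of the members. The median log2 difference of the members was 0.31, and that of all 15248 genes, as measured, was 0.02. The higher and lower counts of members were 3 and 5 with quantile normalization, 1 and 7 with no scaling, and 0 and 43 with spike-in scaling, under which 3.87% of all genes were higher and 83.2% lower. The directions below are therefore relative to the 75th percentile of each array. A difference in the number of cells of a type and a difference in RNA per cell cannot be told apart in such bulk samples.

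**Figure D1:**
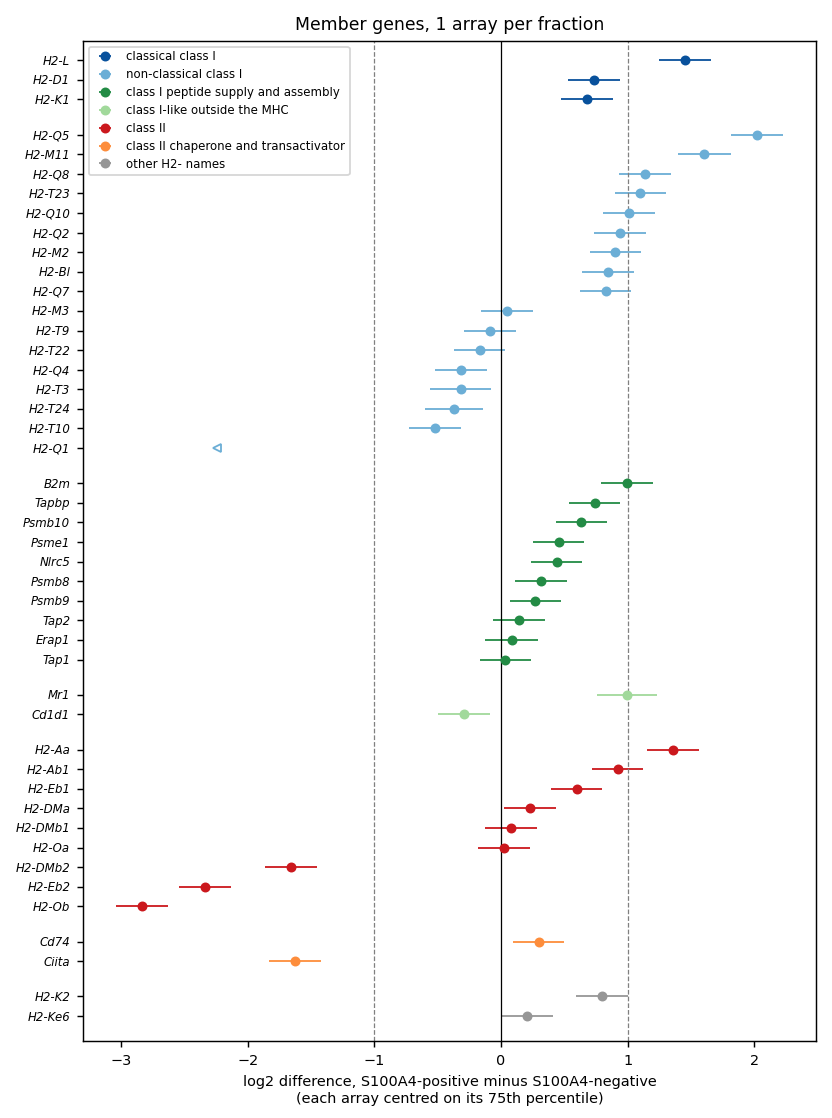
Log2 difference in processed signal, S100A4-positive minus S100A4-negative, of the 45 member genes above background, by class. Points are single differences with the scanner error as bars, the open triangle is a bound, and dashed lines mark 2-fold. H2-Ob, H2-Eb2, H2-DMb2 and Ciita lie far to the left of the other genes of the class II pathway, while H2-Aa lies right of the 2-fold line (at -1.16 with spike-in scaling).

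The class II genes split. The I-A chain genes H2-Aa and H2-Ab1, and H2-Eb1, whose alpha chain gene does not work in this strain, lay at log2 differences between 0.60 and 1.36. By contrast, H2-Ob, H2-Eb2 and H2-DMb2 lay between -2.84 and -1.66. Of 9 class II genes above background, 1 (11.1%) was at least 2-fold higher and 3 (33.3%) were at least 2-fold lower. Among all genes above background these shares were 21.4% and 17.0%. The class II median was 0.08. The probes at the ends of this range are shown as 60-base sequences, 5′ to 3′, because they are what the extreme values were measured with. The H2-Aa probe maps to chr17:34421285-34421344 on the minus strand and the H2-Ob probe to chr17:34380481-34380849 on the plus strand, both in mm9 and per the array files. The H2-Ob stretch is longer than the probe, which matches it in pieces.
H2-Aa: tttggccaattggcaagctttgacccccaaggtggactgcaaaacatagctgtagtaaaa
H2-Ob: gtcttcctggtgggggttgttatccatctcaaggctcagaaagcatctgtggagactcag

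H2-Aa, the alpha chain of the I-A molecule, had a signal of 45481 in S100A4-positive cells and 27537 in S100A4-negative cells. It was 2.56-fold higher in positive cells (1.36 ± 0.20, scanner error), and was the 1 class II gene past 2-fold in that direction. It fell short of 2-fold with quantile normalization (0.98), the deposited value table (0.98) and no scaling (0.72), and lay at -1.16 with spike-in scaling. H2-Ab1, the beta chain that pairs with it, had a signal of 111180 in positive cells and 91183 in negative cells, a difference of 0.92 ± 0.20. Its 4 probes gave 0.65 to 0.96, all short of 2-fold. H2-Eb1, the beta chain of I-E, gave 119891 in positive cells and 123107 in negative cells, or 0.60 ± 0.20. The raw signals of H2-Eb1 were thus close on both arrays, and its place above 0 comes from the scaling: the value was 0.02 with quantile normalization and -0.04 with no scaling. H2-Ea-ps, the alpha chain pseudogene of I-E in this strain, was well above background on neither array.

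The peptide-loading genes of class II fell into a pair of groups. H2-DMa, the alpha chain of the peptide exchanger H2-DM, had a signal of 5549 in S100A4-positive cells and 7343 in S100A4-negative cells, a difference of 0.23 ± 0.20. H2-DMb1, a beta chain of the same molecule, had 14911 in positive cells and 21917 in negative cells, or 0.08 ± 0.20. H2-Oa, the alpha chain of the H2-DM inhibitor H2-O, had 7458 in positive cells and 11404 in negative cells, or 0.02 ± 0.20. These 3 genes therefore stayed within 2-fold on this scale, and for H2-DMb1 and H2-Oa the difference was smaller than the scanner error. That error does not cover the choice of scale. With no scaling H2-DMa lay at -0.40, H2-DMb1 at -0.56 and H2-Oa at -0.61.

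The partner chains H2-DMb2 and H2-Ob stood apart from them. H2-DMb2, the other beta chain of H2-DM, had a signal of 646.4 in S100A4-positive cells and 3173 in S100A4-negative cells and was 3.16-fold lower in positive cells (-1.66 ± 0.20). H2-Ob, the beta chain of H2-O, had 1180 in positive cells and 13073 in negative cells and was 7.14-fold lower (-2.84 ± 0.20). A second H2-Ob probe gave 288.7 in positive cells and 1975 in negative cells, a difference of -2.14. Another was bright enough on the negative array alone and gave a difference of at most -0.32. So 2 of the 3 detected H2-Ob probes placed it at least 2-fold lower in positive cells. The bound of the other was short of 2-fold. H2-Oa, the partner of H2-Ob, did not differ by more than its scanner error on this scale, but lay at -0.61 with no scaling. H2-Eb2, a further beta chain gene of the E region, had 496.6 in positive cells and 3894 in negative cells and was 5.05-fold lower (-2.34 ± 0.20), and its second probe gave 128.8 in positive cells and 506.5 in negative cells (-1.34). All 3 of these genes stayed at least 2-fold lower under each of the 9 other ways of processing.

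Ciita, the transactivator on which class II transcription depends, had a signal of 4303 in S100A4-positive cells and 20636 in S100A4-negative cells and was 3.09-fold lower in positive cells (-1.63 ± 0.20). Its other 2 detected probes gave -1.70 and -1.35. Cd74, the invariant chain that guards the groove of new class II molecules, had 105493 in positive cells and 133284 in negative cells, a difference of 0.30 ± 0.20. Ciita was thus at least 2-fold lower in positive cells while its known targets H2-Aa, H2-Ab1, H2-Eb1 and Cd74 were not, and no test of that contrast is possible with 1 array per group. Cd74 lay at -0.26 with quantile normalization and -0.34 with no scaling.

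**Figure D2:**
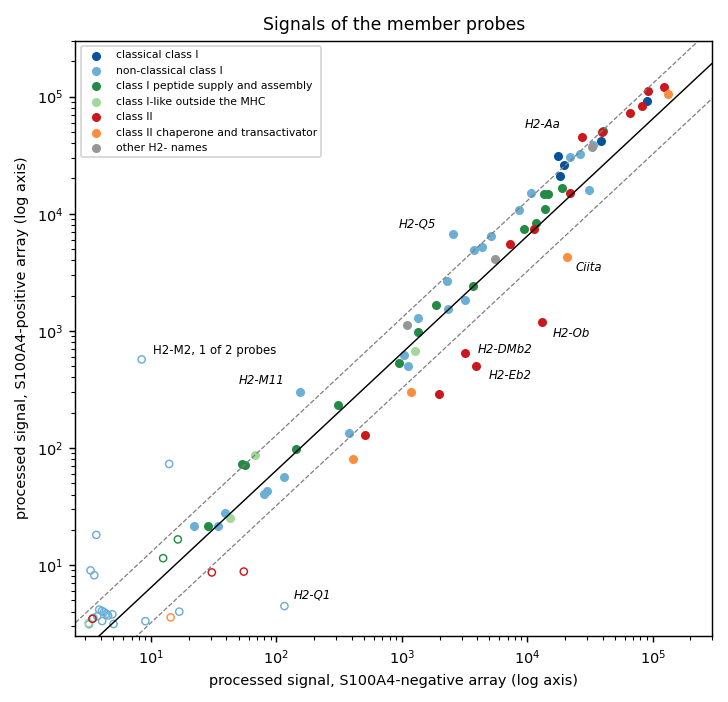
Processed signal of the 95 member probes on the S100A4-positive array (vertical, log axis) against the S100A4-negative array (horizontal, log axis), coloured by class. The solid line marks equal signal after scaling on the 75th percentile, the dashed lines 2-fold, and open circles are probes not well above background on at least 1 array. The brightest class II probes lie between the solid line and the upper dashed line, with H2-Aa above it, and the probes used for the genes H2-Ob, H2-Eb2, H2-DMb2 and Ciita lie below the lower dashed line.

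Markers of cell types also differed between the fractions. All 12 B cell markers were lower by more than 2-fold in S100A4-positive cells, at a median log2 difference of -5.27 and a summed signal of 9241 in positive cells against 234150 in negative cells, and Pax5 was above background in negative cells alone. All 8 markers of germinal centre B cells were also lower, with a median of -4.73, a summed signal of 2983 in positive cells against 23989 in negative cells, and Rgs13 above background in negative cells alone. All 12 macrophage and monocyte markers were at least 2-fold higher in positive cells, with a median of 5.47 at bounds and a summed signal of 166658 in positive cells against 4056 in negative cells. Classical dendritic cell markers had 8 of 11 higher, 1 lower, a median of 4.07 at bounds and a summed signal of 83564 in positive cells and 93331 in negative cells. Clec10a, Cd209a and Clec9a of that list were above background in positive cells alone. Other lists moved too. Markers of plasmacytoid dendritic cells had 4 of 6 higher and 0 lower (median 4.01), and those of innate lymphoid cells 7 of 8 higher and 0 lower (median 4.11). T cell markers had 2 of 12 higher and 7 lower (median -2.75), plasma cell markers 2 of 7 higher and 4 lower (median -1.96), and epithelial markers 1 of 12 higher and 10 lower (median -2.96), with a summed epithelial signal of 2302 in positive cells and 30383 in negative cells. Endothelial markers had 4 of 6 higher and 0 lower (median 2.61 at bounds), and fibroblast markers 5 of 8 higher and 1 lower (median 1.66 at bounds). The fractions thus differed in genes of many cell types in both directions, and the part of these markers in the MHC values was not tested.

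Promoter sequence was set beside the class II values. Class II promoters are known to carry an X box, read by RFX and CREB family factors, and a Y box, read by NF-Y, to which Ciita is recruited. The core letters ATTGG, as in a Y box, and TGATG, as in the second part of an X box, were searched on both strands in RefSeq promoters of GRCm38.p6, from 250 bases before to 50 after each gene start. A table entry existed for 42 genes of the member list, 39 of them on the array. ATTGG was present in 8 of 8 class II promoters and 37.4% of all 32851 promoters, and TGATG in 7 of 8 class II promoters and 39.3% of all. Neither was particular to class II. ATTGG was present in 2 of 2 classical class I, 18 of 21 non-classical class I and 4 of 9 peptide supply genes. TGATG was present in 1 of 2, 19 of 21 and 7 of 9 of them. Class counts are per gene, and the share of all is per promoter. The spaced pair was TGATG followed by ATTGG after 15 to 25 bases on the same strand, a spacing set after matches were seen. It was present in 5 of 8 class II promoters and 0.682% of all. It was also present in 1 of 2 classical class I, 4 of 21 non-classical class I and 0 of 9 peptide supply promoters.

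The windows below hold 70 bases around ATTGG for 3 genes that were not lower (H2-Aa, H2-Eb1, H2-DMb1) and the 3 that were (H2-DMb2, H2-Eb2, H2-Ob), 5′ to 3′ on the gene's strand, with TGATG and ATTGG of the spaced pair in capitals, or ATTGG alone in H2-Aa, which has no such pair. They lie at chr17:34287847-34287916 on the minus strand for H2-Aa, and on the plus strand at chr17:34305763-34305832 for H2-Eb1, chr17:34153085-34153154 for H2-DMb1, chr17:34145114-34145183 for H2-DMb2, chr17:34325530-34325599 for H2-Eb2 and chr17:34238803-34238872 for H2-Ob (GRCm38.p6).
H2-Aa: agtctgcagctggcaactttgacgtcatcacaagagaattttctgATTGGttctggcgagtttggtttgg
H2-Eb1: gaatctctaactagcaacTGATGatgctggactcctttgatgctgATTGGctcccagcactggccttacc
H2-DMb1: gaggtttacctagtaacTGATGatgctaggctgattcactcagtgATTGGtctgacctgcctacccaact
H2-DMb2: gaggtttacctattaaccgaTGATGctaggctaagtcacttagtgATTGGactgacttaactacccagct
H2-Eb2: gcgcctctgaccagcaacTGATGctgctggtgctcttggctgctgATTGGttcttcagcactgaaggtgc
H2-Ob: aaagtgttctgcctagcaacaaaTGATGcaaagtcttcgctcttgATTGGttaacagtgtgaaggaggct

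The 3 lower genes each held the pair, with 20 bases between its parts in H2-DMb2, 22 in H2-Eb2 and 17 in H2-Ob. H2-Eb1 and H2-DMb1, which were not lower, held it with 22 and 23 bases between, counted from the TGATG in capitals. In both windows another TGATG overlaps the end of the marked one, so a shorter spacing can also be read there. H2-Aa, the class II gene with the highest difference, held ATTGG 48 bases before its start without the pair. Its window does hold TGATG on the opposite strand, read there as CATCA, ahead of that ATTGG. The search for the pair did not count this orientation. The pair in these letters therefore did not separate the class II genes that were lower from those that were not. No match says only that the letters are not there in this order, spacing and orientation.

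Classical class I molecules present cytosolic peptides to CD8 T cells. The 3 gene names of this class lay between 0.68 and 1.45 with a median of 0.73, and at a median of -1.78 with spike-in scaling. The upper end comes from a probe annotated as H2-L. H2-K1 had a signal of 92487 in S100A4-positive cells and 89662 in S100A4-negative cells, a difference of 0.68 ± 0.20, and its second probe gave 26276 in positive cells and 19833 in negative cells (1.04). H2-D1 had 41626 in positive cells and 38835 in negative cells, or 0.73 ± 0.20. Both genes were thus short of 2-fold at the probe used for the gene. The probe annotated as H2-L had 30814 in positive cells and 17483 in negative cells and was 2.74-fold higher in positive cells (1.45 ± 0.20). It fell short of 2-fold with no scaling (0.82) and lay at -1.06 with spike-in scaling. A second H2-L probe gave 20882 in positive cells and 18280 in negative cells (0.83). The accessions of both probes belong to H2-D1 in RefSeq, and C57BL/6 mice lack H2-L, so these values cannot be assigned to a separate H2-L gene. The name was still counted in this class and among the 7 member genes at least 2-fold higher.

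Class I genes are near copies of each other, so the probe sequences were compared with one another. Of 2663 pairs of detected probes of different member genes, of all classes, 4 shared at least 36 of their 60 bases without gaps. Probes at different positions of near copies need not share bases, so this count cannot show how far the signals of class I genes overlap. The H2-L probe used for the gene shared 48 of 54 paired bases with the H2-T23 probe and 41 of 60 with an H2-K1 probe. They are printed because their values, 2.74-fold, 2.14-fold and 2.06-fold higher in positive cells, may not be separate measurements. Capitals mark bases equal to the paired base of the H2-L probe. In mm9 they map to chr17:35403191-35403250 on the plus strand for H2-L, and on the minus strand to chr17:36167338-36167574 for H2-T23 and chr17:34133984-34134043 for H2-K1.
H2-L: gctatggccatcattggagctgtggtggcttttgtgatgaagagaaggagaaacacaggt
H2-T23: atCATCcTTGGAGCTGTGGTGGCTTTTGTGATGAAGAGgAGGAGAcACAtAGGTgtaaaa
H2-K1: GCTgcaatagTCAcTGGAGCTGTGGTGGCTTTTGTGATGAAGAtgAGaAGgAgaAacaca

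The non-classical class I genes were spread on both sides of 0. Of 27 on the array, 17 were above background, of which 5 (29.4%) were at least 2-fold higher in S100A4-positive cells and 1 (5.88%) was at least 2-fold lower. Among all genes above background these shares were 21.4% and 17.0%. The median of the class was 0.83, and -1.69 with spike-in scaling, which also turned each of the 5 higher genes lower. The 10 genes above background on neither array were H2-M1, H2-M5, H2-M9, H2-T18 and 6 genes of the H2-M10 group.

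Taking each gene at its brightest probe, H2-Q5 had the highest value of all members, with a signal of 6674 in S100A4-positive cells and 2549 in S100A4-negative cells, 4.06-fold higher in positive cells (2.02 ± 0.20). H2-M11 had 302.9 in positive cells and 154.5 in negative cells and was 3.04-fold higher (1.61 ± 0.21). With no scaling H2-M11 lay at 0.97, short of 2-fold. H2-Q5 and H2-M11 had 1 probe each, so no second measurement stands behind these values. H2-T23 encodes Qa-1, which shows leader peptides of other class I molecules to natural killer cell receptors, and had 30336 in positive cells and 21953 in negative cells, 2.14-fold higher (log2 error 0.20). Its second probe gave 132.9 in positive cells and 382.8 in negative cells (-0.89), but carried the accession of a different locus, H2-T-ps. H2-Q8 was 2.20-fold higher (15152 in positive cells and 10681 in negative cells), and its accessions belong to both H2-Q6 and H2-Q8. The calls of H2-Q8 and H2-T23 were lost with normexp background correction (0.90 for each), with quantile normalization (0.89 for H2-Q8 and 0.74 for H2-T23), with the deposited value table (0.88 and 0.74) and with no scaling (0.50 and 0.47). H2-Q10, known as a secreted molecule of the liver, was 2.02-fold higher (4905 in positive cells and 3775 in negative cells), while its 3 other probes, all dimmer, gave 0.57, 0.17 and -0.06. The call for H2-Q10 thus rested on 1 of 4 probes, and was lost with the median over probes (0.37), quantile normalization (0.91), the deposited value table (0.90) and no scaling (0.38).

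A second group lay just under 2-fold. H2-Q2 had a signal of 32410 in S100A4-positive cells and 26193 in S100A4-negative cells (0.94), and H2-Bl had 2652 in positive cells and 2295 in negative cells (0.84). H2-Q7, which encodes Qa-2, had 38568 in positive cells and 33768 in negative cells (0.83). The accessions of the 3 H2-Q7 probes, at 0.83 to 0.98, belong to both H2-Q7 and H2-Q9. H2-M2 had 5236 in positive cells and 4346 in negative cells (0.90) at the probe used for the gene. A second H2-M2 probe, which maps to a neighbouring stretch, read 570.1 in positive cells and was not well above background in negative cells, where it read 8.43, so it was at least 54.8-fold higher. That was the largest disagreement between probes of a member gene, and the median over both probes put H2-M2 at 3.34, above H2-Q5.

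The remaining non-classical genes had values near or below 0. H2-M3, which presents N-formylated peptides, had a signal of 1543 in S100A4-positive cells and 2320 in S100A4-negative cells (0.05). H2-T22 and H2-T10, ligands of certain gamma-delta T cell receptors, had 1820 and 504.0 in positive cells against 3176 and 1122 in negative cells, or -0.17 and -0.52. The probe annotated H2-T9, with an accession of H2-T22, gave 627.1 in positive cells and 1036 in negative cells (-0.09). These genes were within 2-fold of equal levels. H2-Q4 had 15976 in positive cells and 30905 in negative cells (-0.32), and H2-T24 had 57.0 in positive cells and 114.6 in negative cells (-0.37). H2-T3, the thymus leukaemia antigen known from intestinal epithelium, had 40.8 in positive cells and 79.0 in negative cells (-0.32), but another of its probes read 73.0 in positive cells and 14.0, not well above background, in negative cells and was at least 7.02-fold higher. The epithelial markers, as given above, were mostly lower in positive cells, and their part in the H2-T3 values was not tested. H2-Q1 was the 1 member gene seen in a single fraction: it read 4.47 in positive cells, not well above background, and 115.9 in negative cells, at least 4.75-fold lower in positive cells. Such bounds divide the bright signal, after scaling, by what the probe read on the dim array or by that array's detection limit, whichever is higher, the limit being its faintest signal well above background (15.7 on the positive and 16.1 on the negative array).

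**Figure D3:**
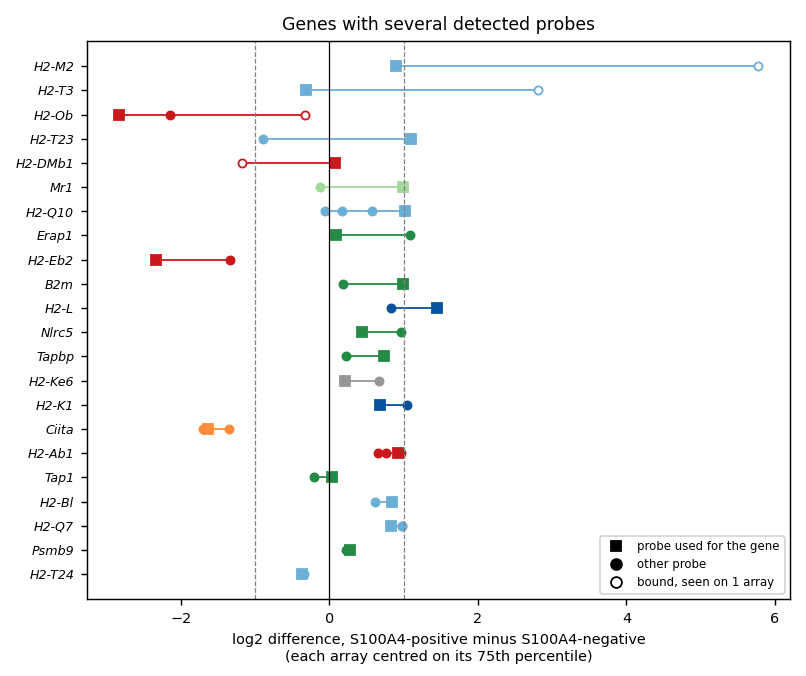
Log2 difference, S100A4-positive minus S100A4-negative, of each detected probe of the 22 member genes that had at least 2 of them, coloured by class as in the plot of member genes. Squares are the probes used for the genes, circles the other probes and open circles bounds, with dashed lines at 2-fold. Probes of H2-M2, H2-T3, H2-Ob and H2-T23 were furthest apart, and those of H2-Ab1 and Ciita lay close together.

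Where a gene had several probes they mostly lay within 2-fold of each other, a span wider than the scanner error of 0.20. Of 22 genes with at least 2 detected probes, 14 had a range under 1 on the log2 scale and 8 had a range of at least 1. The ranges of the 14 ran from 0.035 for H2-T24 to 0.996 for H2-Eb2. None of the 22 had probes past 2-fold in opposite directions. The second H2-DMb1 probe was seen in negative cells alone, at 55.0 against 8.80 in positive cells, and was at least 2.25-fold lower in positive cells, in contrast to 0.08 at the brighter probe. It maps between that probe and the H2-DMb2 probe.

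The genes that supply and assemble class I all lay at or above 0 and short of 2-fold, from 0.03 to 1.00 with a median of 0.38. Among them, B2m, the light chain of every class I molecule, had a signal of 51294 in S100A4-positive cells and 39929 in S100A4-negative cells, a difference of 1.00 ± 0.20 just inside 2-fold, and past it (1.04) with the percentile taken over probes seen on both arrays. Its second probe gave 0.18. Tapbp, which encodes tapasin, had 14760 in positive cells and 13737 in negative cells (0.74). Tap1 and Tap2, the subunits of the peptide transporter, had 2434 and 8323 in positive cells against 3689 and 11722 in negative cells, or 0.03 and 0.14. At the probes used for the genes, the transporter genes therefore differed by less than their scanner error on this scale, and B2m and Tapbp by more. With no scaling Tap1 lay at -0.60 and Tap2 at -0.49, outside that error. A second, dimmer probe gave -0.21 for Tap1, just past its error of 0.20, and another gave 0.22 for Tapbp. With no scaling the median of these 10 genes was -0.26, and with spike-in scaling -2.14.

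The inducible subunits of the immunoproteasome gave 0.63 for Psmb10 (14696 in S100A4-positive cells and 14700 in S100A4-negative cells), 0.31 for Psmb8 (11003 in positive cells and 13749 in negative cells) and 0.27 for Psmb9 (7361 in positive cells and 9465 in negative cells). Psme1, a subunit of the activator PA28, gave 0.45 (16686 in positive cells and 18897 in negative cells). None of these 4 was past 2-fold. Nlrc5, the transactivator of class I genes, had 1650 in positive cells and 1890 in negative cells, a difference of 0.44 ± 0.20. A dimmer Nlrc5 probe gave 0.97. Nlrc5 and the class II transactivator Ciita thus lay on opposite sides of 0 on this scale. Both lay below 0 with no scaling, which puts Nlrc5 at -0.20, and with spike-in scaling, which puts Nlrc5 at -2.08. Erap1, which trims peptides in the endoplasmic reticulum, gave 0.08 (98.6 in positive cells and 144.3 in negative cells), while a dimmer probe of it gave 1.09.

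Tap1 and Psmb9 are read in opposite directions from starts 226 bases apart on chromosome 17 in GRCm38.p6, and their differences, 0.03 and 0.27, lay within the sum of their scanner errors of each other. The letters GAAA, any 2 bases and GAAA again, as in an interferon-stimulated response element, were found in 3.44% of all promoters, in 3 of 9 supply genes (B2m, Erap1 and Psme1), in H2-T23 and H2-T22 among 21 non-classical genes and in 0 of 8 class II genes.

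Of the class I-like genes outside the MHC region, Mr1, which presents vitamin B metabolites, had a signal of 87.4 in S100A4-positive cells and 68.1 in S100A4-negative cells (0.99 ± 0.24), and its second probe gave -0.12. Cd1d1, which presents lipids to natural killer T cells, had 671.1 in positive cells and 1277 in negative cells (-0.29 ± 0.20). Neither passed 2-fold, though Mr1 did (1.04) with the percentile over probes seen on both arrays. A pair of H2- names belong to no presenting molecule: H2-K2, a class I pseudogene, gave 0.80 (36925 in positive cells and 32959 in negative cells), and H2-Ke6, which encodes a steroid dehydrogenase, gave 0.21 (4115 in positive cells and 5537 in negative cells).

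Set side by side, the class II median was below each class I median. The class II genes were split, and their median is the value of H2-DMb1 (0.08). H2-Aa, H2-Ab1 and H2-Eb1, at 0.60 to 1.36, overlapped classical class I, at 0.68 to 1.45. The class II median was 0.66 under the classical class I median (difference of medians -0.66), with a difference of -0.75 from the non-classical and -0.30 from the supply genes. A single factor per array cannot move these differences of medians, and over all 10 ways of processing they ranged from -0.84 to -0.52 against classical and from -0.76 to -0.35 against non-classical class I. The non-classical and classical medians differed by 0.09, and their order turned with normexp background correction, without the filter on dim probes and with the median over probes. With 3 (H2-L among them), 17 and 9 genes that share probes' sequence and a single array each, these are descriptions with no test.

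**Figure D4:**
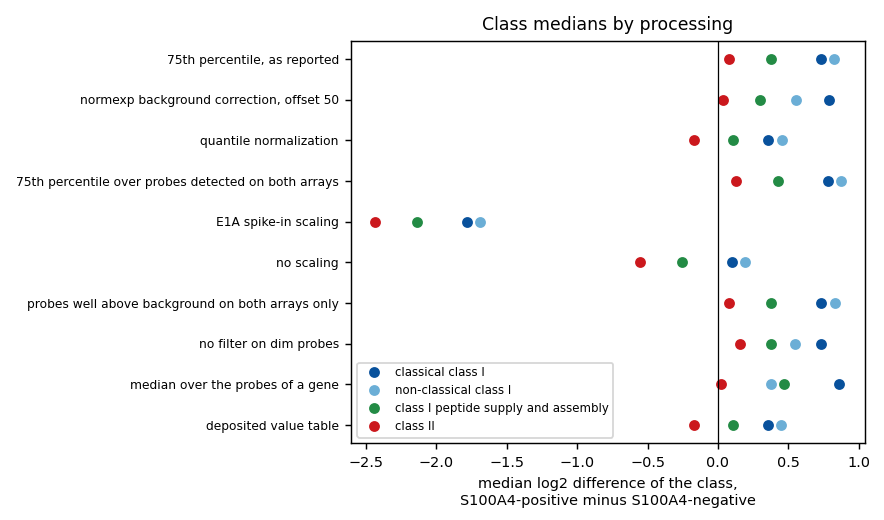
Median log2 difference, S100A4-positive minus S100A4-negative, of 4 member classes under the reported scaling (top) and 9 other ways of processing. Each point is the median of the class's genes above background, or of all its genes without the filter. The class II median lies left of the class I medians in each setting, though the class II genes are split, and spike-in scaling moves all medians below 0.

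Other genes of the same pathways were taken from lists of known roles. The counts of each list stand beside shares of 21.4% higher and 17.0% lower among all genes above background. Endosomal processing for class II, the proteases and partners that cut antigen and the invariant chain, differed most from the class II genes themselves: 12 of 13 were at least 2-fold higher in S100A4-positive cells, 0 were lower and the median was 1.76, a list median that falls below 0 with spike-in scaling. The protease gene Ctsl had a signal of 11541 in positive cells and 440.5 in negative cells (5.35), Cd63 had 9612 in positive cells and 744.2 in negative cells (4.33), and Cst3, an inhibitor of such proteases, had 51890 in positive cells and 6702 in negative cells (3.59). Ctss, the protease known for the last cuts of the invariant chain, was 3.45-fold higher (65970 in positive cells and 29649 in negative cells), and Lgmn, an endosomal protease gene, gave -0.02. Marchf1, a ubiquitin ligase that removes class II from the surface, was 2.22-fold higher (1111 in positive cells and 776.2 in negative cells). Of the genes named here, Ctsl, Cd63 and Cst3 stay above 0 with spike-in scaling. Several of these genes are also active in lysosomes of macrophages in general, and the macrophage markers given above moved the same way; their part in these values was not tested.

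Among 18 regulators of MHC promoters, 1 (5.56%) was at least 2-fold higher, 5 (27.8%) lower and the median was 0.29. The shares of all genes were 21.4% and 17.0%. Ifngr1, a chain of the interferon-gamma receptor, was 3.12-fold higher in S100A4-positive cells (11322 in positive cells and 5625 in negative cells). Irf2 was at -1.87, Nfyb, a subunit of NF-Y, at -1.67, Rfx5, a subunit of RFX, at -1.63 and the coactivator gene Ep300 at -1.49. Rfx5 was dim on both arrays, with 27.2 in positive cells and 130.1 in negative cells. The other subunit genes of RFX and NF-Y, Rfxank (0.57), Rfxap (0.53), Nfya (0.42) and Nfyc (-0.49), were within 2-fold, as was Irf8 (0.62).

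The chaperones and peptide editors of the endoplasmic reticulum had 0 of 8 past 2-fold either way and a median of 0.02, from Lnpep at -0.99 to Hspa5 at 0.76. The constitutive proteasome and its activators had 1 of 12 higher, the assembly factor gene Pomp at 1.20, 0 lower and a median of 0.38, the same to 2 decimals as that of the class I supply genes. The costimulation genes of antigen-presenting cells had 5 of 10 higher, 1 lower and a median of 1.01. Cd86 was 3.27-fold higher in S100A4-positive cells (4106 in positive cells and 1952 in negative cells), Tnfsf4 was seen in positive cells alone and at least 53.8-fold higher, and Pdcd1lg2 was 2.26-fold lower. Spike-in scaling brings the medians of these 3 lists and of the promoter regulators below 0, and with them Ifngr1, Pomp and Cd86.

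**Figure D5:**
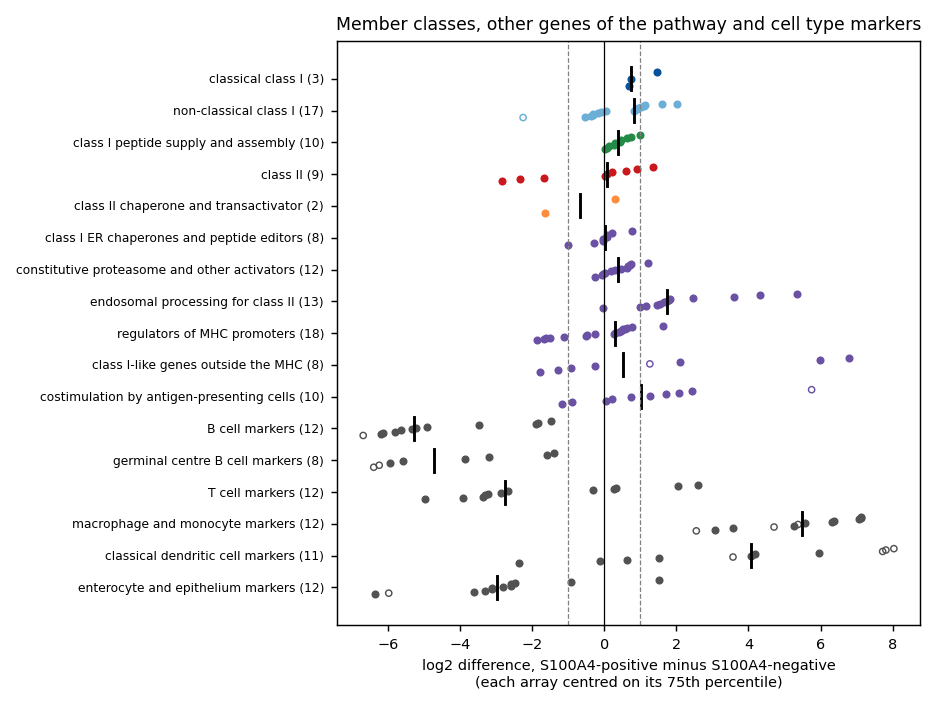
Log2 difference, S100A4-positive minus S100A4-negative, of each gene above background in 5 member classes (top), 6 lists of related genes (middle) and 6 lists of cell type markers (bottom), with the number of genes in brackets. Black ticks are medians at bounds, open circles genes seen on 1 array and dashed lines 2-fold. Most member genes lie within 2-fold, endosomal processing genes lie to the right (their median falls below 0 with spike-in scaling), and most marker genes lie far to either side.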

How the data were processed

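Total RNA of each sorted fraction was isolated with ISOGEN, amplified with an Agilent kit for small inputs, given a Cy3 label and hybridised to 1 array, per the labels' protocols. The deposited scanner tables give a processed signal intensity per spot, background-subtracted by Agilent Feature Extraction 10.7.1.1 per the file headers (the submitters' processing notes name 9.5.1.1), and not normalized between arrays. The other deposited values used are flags for spots well above background and for outliers. The deposited value table of the series, 1 intensity per probe, served as an alternative, and the steps by which the authors made it are not given here.

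Control spots and outlier spots (80 on the positive and 138 on the negative array) were left out, intensities were put on the log2 scale, and the 75th percentile of each array was subtracted, before the deposited intensities of repeated spots were averaged. Members kept the names in the array files. Other probes were named through RefSeq accessions (32920), symbols (10206) or synonyms (519), and 12862 were unnamed. A gene took its brightest probe by mean signal, out of those flagged well above background on either array. Sizes of 2-fold replaced tests, since 1 array per group leaves no residual degrees of freedom, and the number of arrays limits the precision. For 289 repeated probes the median SD between spots was 0.04 on the positive and 0.10 on the negative array (log2), and detected spots had a median raw signal 5.35 and 6.80 times the local background on those arrays.

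The members, classes and gene lists were chosen with earlier results of these data known. All members above background are named with values, and of other lists up to 4 genes each way by size, with a few further genes of known role chosen after their values were seen; 1 gene was taken off the list of class I-like genes because it is not class I-like. That list is given in the closing section. Not all marker genes are named. Other settings tried were normexp background correction (offset 50, limma 3.58.1, R 4.3.3), quantile normalization and other scalings. Other filters, the median over probes and the deposited table were also tried. Steps other than normexp used Python 3.11.15, numpy 2.4.6, pandas 2.3.3 and matplotlib 3.10.9. The calculation of differences was tested on simulated data.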

Additional observations from a re-analysis of the deposited data

How the results depend on the processing

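The main limit is the scaling, since 1 array per group gives no spread between samples, and no replicate could be left out. No paired analysis was possible because each group has 1 sample. Quantile normalization gave 3 genes at least 2-fold higher and medians of 0.36 for classical class I, 0.45 for non-classical class I, -0.17 for class II and 0.11 for the supply genes. The deposited value table gave 3 genes and 0.35, 0.45, -0.17 and 0.11 in the same order. No scaling gave 1 gene higher and 0.10, 0.19, -0.56 and -0.26. Spike-in scaling gave 0 higher and 43 lower and medians of -1.78, -1.69, -2.44 and -2.14, and it turned H2-Aa (-1.16), H2-L (-1.06), H2-M11 (-0.91), H2-Q10 (-1.50), H2-Q5 (-0.49), H2-Q8 (-1.38) and H2-T23 (-1.42) below 0. The median of all genes was -2.50 with spike-in scaling, -0.62 with no scaling and 0.40 without the filter on dim probes, against 0.02 as reported. The non-classical median was 0.55 with normexp, 0.55 without the filter and 0.37 with the median over probes. With the percentile taken over probes seen on both arrays alone, all 45 member genes stayed within their scanner error of the reported value, but B2m and Mr1 passed 2-fold, which made 9 genes higher. H2-Q1 lay at -0.85 with normexp, inside 2-fold, so its call depends on the background correction. The cause of the other shifts was not tested.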

Other observations

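Class I-like genes that lie outside the MHC region and do not present peptides were also measured, as 11 of 16 listed genes had a probe and 8 were above background. Of these, 4 were at least 2-fold higher in S100A4-positive cells and 2 lower, with a median of 0.51 at bounds and 0.93 as measured. Hfe, a regulator of iron uptake, had a signal of 1251 in S100A4-positive cells and 17.5 in S100A4-negative cells, 111-fold higher in positive cells (log2 difference 6.79 ± 0.35, scanner error). Procr, the receptor of protein C, had 1685 in positive cells and 41.7 in negative cells and was 62.6-fold higher (5.97 ± 0.23). Fcgrt, the heavy chain of the neonatal Fc receptor, had 548.7 in positive cells and 197.7 in negative cells and was 4.31-fold higher (2.11 ± 0.21), and fell below 0 with spike-in scaling. Mill2 was seen in positive cells alone and was at least 2.41-fold higher. The genes of NKG2D ligands in the list lay on the other side: Ulbp1 had 21.2 in positive cells and 112.3 in negative cells (-1.77), and Raet1e had 20.5 in positive cells and 77.3 in negative cells (-1.28). The negative signal of Hfe was close to the array's lowest signal well above background, and with 1 array per group none of these differences has a test.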
